A study of Mus musculus with 6 samples.

Results

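The 9 genes described here encode signalling adaptors and surface proteins of natural killer cells and of the lymphocytes that live between the epithelial cells of the gut. They are the adaptors Fcer1g, Tyrobp, Hcst and Sh2d1a, and the surface proteins Cd7, Cd160, Ncr1, Cd2 and Thy1. They were picked by symbol from a table of 20591 genes, and all 9 were found in it. They were picked with their values in these libraries known, so the comparison of their levels between the groups is a description and carries no test.

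The libraries came from B cells sorted from mouse colon, 3 from mice given lenvatinib and 3 from mice given DMSO. Lenvatinib blocks receptor tyrosine kinases, among them the receptors for VEGF and FGF, and DMSO is a common solvent for such drugs. The labels give no strain, age, genotype, dose or duration, and no inflammatory state of the mice, although the series title names colitis. They call the libraries biological replicates without saying that each came from a separate animal, so SDs and p-values cover only library-to-library spread, and part of it may be technical. The design text names 1 contrast, lenvatinib against DMSO, and 1 tissue.

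Innate lymphocytes read their targets through receptors that mostly lack signalling parts of their own. Such receptors sit beside short adaptor proteins. FcR gamma, encoded by Fcer1g, and DAP12, encoded by Tyrobp, carry tyrosine motifs known as ITAMs that recruit the kinases Syk and Zap70. DAP10, encoded by Hcst, carries a different tyrosine motif that recruits PI3 kinase and Grb2. SAP, encoded by Sh2d1a, is an SH2 domain adaptor that couples SLAM family receptors to the kinase Fyn. Natural killer cells and natural intraepithelial lymphocytes use several of these adaptors together, and macrophages, dendritic cells, neutrophils and mast cells also carry FcR gamma and DAP12.

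Gene-assigned reads numbered from 26635279 to 31655500 per library. All 16 genes of a B cell identity list were present in every library, the lowest value being 6.18 scaled FPKM, so the labelled cell type had its markers. Scaled FPKM is the authors' FPKM, fragments per kilobase of gene and per unit of library depth, divided by a library factor. The limma test covered 9937 genes, those that reached 1 scaled FPKM in 3 or more of the 6 libraries. At an adjusted p of 0.05, 1038 were higher with lenvatinib (10.4 percent) and 816 lower (8.21 percent). When the libraries were scaled to the sum of FPKM the split was 859 higher and 978 lower. The summed level of a T cell list was 48.2 to 52.9 in DMSO and 137 to 143 in lenvatinib libraries. For a list of natural killer and group 1 innate lymphoid cells it was 41.7 to 51.7 and 215 to 222. Since RNA was measured in bulk, more cells of a type and more RNA per cell cannot be told apart.

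Start regions are shown for the 4 of the 9 genes that had a RefSeq promoter window. The windows run from 250 bases before to 50 after an annotated start, in build GRCm38.p6, which is not the build GRCm39 named in the submitters' processing notes. They are Fcer1g at chr1:171234300-171234599 on the minus strand, Hcst at chr7:30419805-30420104 on the minus strand and Ncr1 at chr7:4337465-4337764 on the plus strand. Cd160 has 2 windows on the minus strand, an upstream one at chr3:96829302-96829601 and a downstream one at chr3:96814472-96814771. A second Ncr1 window, at chr7:4337474-4337773, overlaps the one shown. Capitals mark TGTGGT, a core bound by RUNX factors, and GGAAGT, a core bound by ETS factors, each searched on both strands, so ACCACA and ACTTCC are also in capitals; no matches overlapped.
Fcer1g: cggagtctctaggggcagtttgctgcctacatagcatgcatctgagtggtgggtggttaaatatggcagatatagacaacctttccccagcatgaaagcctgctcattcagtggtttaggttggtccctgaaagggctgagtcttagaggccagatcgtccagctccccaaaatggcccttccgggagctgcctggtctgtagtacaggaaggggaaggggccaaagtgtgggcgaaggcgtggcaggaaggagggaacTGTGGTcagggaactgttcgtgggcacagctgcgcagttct
Hcst: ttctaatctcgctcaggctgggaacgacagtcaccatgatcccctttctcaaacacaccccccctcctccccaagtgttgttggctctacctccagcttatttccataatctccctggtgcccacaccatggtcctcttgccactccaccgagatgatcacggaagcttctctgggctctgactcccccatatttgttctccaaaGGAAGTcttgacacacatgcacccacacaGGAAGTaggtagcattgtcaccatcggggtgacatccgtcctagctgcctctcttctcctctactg
Ncr1: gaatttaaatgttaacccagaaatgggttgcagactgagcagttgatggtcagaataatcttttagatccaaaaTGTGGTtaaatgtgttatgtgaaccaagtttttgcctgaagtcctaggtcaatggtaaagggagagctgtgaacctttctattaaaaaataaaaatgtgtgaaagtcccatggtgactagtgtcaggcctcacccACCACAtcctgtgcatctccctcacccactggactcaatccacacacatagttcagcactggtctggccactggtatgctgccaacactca
Cd160, upstream start: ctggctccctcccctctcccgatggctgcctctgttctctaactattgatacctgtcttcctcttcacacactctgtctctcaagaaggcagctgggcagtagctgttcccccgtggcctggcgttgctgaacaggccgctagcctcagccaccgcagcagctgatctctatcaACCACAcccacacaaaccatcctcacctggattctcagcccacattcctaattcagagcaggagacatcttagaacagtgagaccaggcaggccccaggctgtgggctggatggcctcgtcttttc
Cd160, downstream start: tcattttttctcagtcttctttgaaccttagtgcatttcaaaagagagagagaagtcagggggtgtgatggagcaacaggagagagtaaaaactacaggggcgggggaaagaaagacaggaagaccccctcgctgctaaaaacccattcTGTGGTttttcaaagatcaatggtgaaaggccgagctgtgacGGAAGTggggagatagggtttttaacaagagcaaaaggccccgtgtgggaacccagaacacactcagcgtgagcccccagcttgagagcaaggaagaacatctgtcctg
The RUNX core was in the Fcer1g window, in both Cd160 windows and, at 2 places, in each Ncr1 window. The Hcst window held none of it and 2 copies of the ETS core, and the Cd160 window at the downstream start held 1 copy of the ETS core. Of all 32851 windows of this length in the table, 16.8 percent held the RUNX core and 23.8 percent the ETS core. A match is a description of letters and not a site of binding.

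The 3 adaptors that pair with receptors in the membrane were all higher with lenvatinib, but by different amounts. Fcer1g, the FcR gamma chain, stood at 13.3, 12.9 and 10.8 scaled FPKM in DMSO replicates 1, 2 and 3 and at 32.8, 28.3 and 35 in lenvatinib replicates 1, 2 and 3. The groups did not overlap, and the mean went from 12.3 ± 1.36 to 32 ± 3.4 (SD, n = 3), a ratio of 2.6. Tyrobp, which encodes DAP12, stood at 37.2, 32.5 and 36.9 in DMSO and at 54, 46.6 and 50.2 in lenvatinib libraries. Its lowest lenvatinib library was above its highest DMSO library, with a ratio of means of 1.41. Hcst, which encodes DAP10, stood at 24.3, 20.4 and 19.5 in DMSO and at 33.6, 30.7 and 27.8 in lenvatinib libraries, a ratio of 1.43. The gap between the groups was narrow for Hcst, from 24.3 in the highest DMSO library to 27.8 in the lowest lenvatinib library. On the log2(scaled FPKM + 1) scale the differences of means were 1.31 (SE 0.124) for Fcer1g, 0.49 (SE 0.0859) for Tyrobp and 0.5 (SE 0.121) for Hcst. These values rest on 708 Fcer1g reads over the 3 DMSO libraries and 1867 over the 3 lenvatinib libraries, 1783 and 2567 for Tyrobp, and 822 and 1208 for Hcst.

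The balance between Tyrobp and Fcer1g was separate between the groups, while that between Tyrobp and Hcst overlapped. The ratio of Tyrobp to Hcst within a library was 1.67 ± 0.197 in DMSO and 1.64 ± 0.149 in lenvatinib libraries (SD, n = 3), and the groups overlapped. The ratio of Tyrobp to Fcer1g was 2.79, 2.53 and 3.42 in DMSO replicates 1, 2 and 3 and 1.64, 1.64 and 1.44 in lenvatinib replicates 1, 2 and 3. Every DMSO library had the higher ratio, and the groups did not overlap. Tyrobp and Hcst are neighbours on opposite strands in the GENCODE M21 annotation of GRCm38, with 126 bases between them and no shared exon bases. The use of strand in counting was not given in the sources used here.

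**Figure D1:**
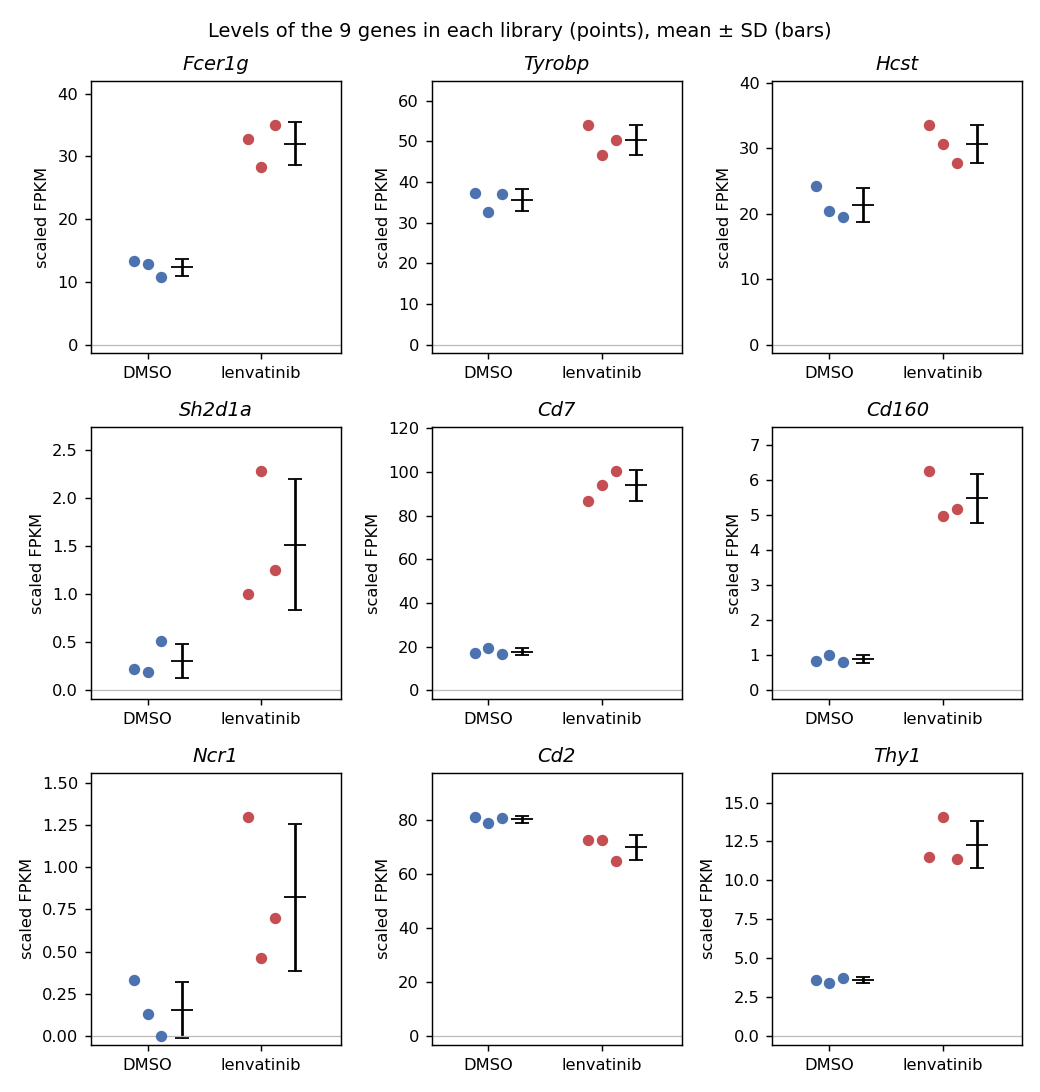
Level of each of the 9 genes in scaled FPKM (vertical axes, which differ between panels) in 3 DMSO libraries (blue points) and 3 lenvatinib libraries (red points), with the mean and SD of each group as black bars. In 8 panels all lenvatinib points lie above all DMSO points, and in the Cd2 panel all lie below. Of the 19715 genes with any value, 13.5 percent lay above in this way and 10.9 percent below.

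Sh2d1a, the SAP adaptor, was near the limit of detection in DMSO libraries. It stood at 0.219, 0.186 and 0.513 scaled FPKM there and at 0.996, 2.28 and 1.25 in lenvatinib libraries. The groups did not overlap, but the lenvatinib libraries themselves spanned from 0.996 to 2.28. The DMSO values come from 6, 6 and 16 reads, and the lenvatinib values from 33, 69 and 36 reads. Over the 3 libraries of a group that is 28 reads (95 percent exact Poisson interval 18.6 to 40.5) against 138 (116 to 163), intervals that cover counting error only. Sh2d1a missed the filter on low values by a small margin, at 0.996 in lenvatinib replicate 1, and had no limma fit. With FPKM as deposited it passed. In the GENCODE M21 annotation its exons share 1465 bases with Tenm1 on the opposite strand, whose mean was 0.009 ± 0.0156 in DMSO and 0 in lenvatinib libraries.

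Among the surface proteins Cd7 and Cd160 had the largest differences on the log2(scaled FPKM + 1) scale, which shrinks those of low genes. On recovered reads Ncr1 had the largest log2 difference, 3.23. That value rests on DMSO replicate 3, which had 0 Ncr1 reads, so the small offset added before taking logs set its log value. By ratio of means Ncr1, at 5.37, was below Cd160. Cd7, an immunoglobulin superfamily receptor of T cells, natural killer cells and intraepithelial lymphocytes, stood at 17, 19.6 and 16.4 scaled FPKM in DMSO and at 86.7, 94 and 100.5 in lenvatinib libraries. No lenvatinib library was near a DMSO library, and the difference of mean log2 values was 2.35 (SE 0.0967). In reads this was 468 to 635 in a DMSO library and 2850 to 2900 in a lenvatinib library. Cd160, a receptor for HVEM that is anchored in the membrane by a lipid and typical of intraepithelial CD8 T cells and natural killer cells, stood at 0.845, 1.01 and 0.807 in DMSO and at 6.27, 4.98 and 5.18 in lenvatinib libraries. Its ratio of means was 6.17, the highest of the 9 genes, from 206 reads over the DMSO libraries and 1290 over the lenvatinib libraries. The ratio of Cd7 to Cd160 was 19.9 ± 0.47 in DMSO and 17.4 ± 3.07 in lenvatinib libraries, and the groups overlapped. In the GENCODE M21 annotation an antisense gene, Gm11775, shares 122 exon bases with Cd7, and Pdzk1 on the opposite strand shares 68 with Cd160. The means were 0.108 ± 0.188 in DMSO and 0.483 ± 0.00916 in lenvatinib libraries for Gm11775, and 0.0327 ± 0.0567 and 0.16 ± 0.101 for Pdzk1. Reads in the shared exon bases cannot be assigned between the partners if strand was not used.

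Thy1, a lipid-anchored glycoprotein of T cells and innate lymphoid cells in the mouse, stood at 3.6, 3.39 and 3.76 scaled FPKM in DMSO and at 11.5, 14.1 and 11.4 in lenvatinib libraries. The groups were well apart, with a ratio of means of 3.43 and a difference of mean log2 values of 1.53 (SE 0.0978). Ncr1, the NKp46 receptor of natural killer cells and some innate lymphoid cells, which signals through FcR gamma and the zeta chain, was the scarcest of the 9 genes. It stood at 0.33, 0.129 and 0 in DMSO and at 1.3, 0.461 and 0.702 in lenvatinib libraries. The groups were separate by a small margin, and the DMSO values come from 13, 6 and 0 reads against 62, 20 and 29 reads in lenvatinib libraries. Over the group this is 19 reads (95 percent exact Poisson interval 11.4 to 29.7) against 111 (91.3 to 134). Ncr1 did not pass the filter on low values.

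Cd2 was the exception in direction. CD2 is an adhesion receptor that binds CD48, and in the mouse it is carried by B cells as well as by T and natural killer cells. It stood at 81.3, 78.9 and 80.8 scaled FPKM in DMSO and at 72.5, 72.7 and 64.7 in lenvatinib libraries. All lenvatinib libraries were below all DMSO libraries, with a mean of 80.3 ± 1.31 against 69.9 ± 4.56 (SD, n = 3) and a difference of mean log2 values of −0.2 (SE 0.0563). Lenvatinib replicate 3 was the lowest, and without it the difference was −0.14. The ratio of Cd2 to Cd79a, a B cell receptor signalling chain of the B cell identity list, was 0.0776 ± 0.00254 in DMSO and 0.0873 ± 0.00783 in lenvatinib libraries, and the groups overlapped.

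Of the 9 genes 7 passed the filter and were fitted with all other genes. Cd160 passed with 1 DMSO library and 3 lenvatinib libraries at 1 or more, so it passed mainly through the group in which it was higher. At the limma threshold 6 of the 7 were called higher, where 10.4 percent of all tested genes were, and 1, Cd2, was called lower, where 8.21 percent were. Because the genes were picked on this contrast, nothing is read from these counts. The calls of Fcer1g, Tyrobp, Hcst, Cd7 and Thy1 were kept in all 14 alternative settings, and that of Cd160 in each one that tested it. The lower call of Cd2 was lost in 4 of the 14, namely without a filter on low values, without trend and robust moderation, without DMSO replicate 1 and without DMSO replicate 3. All lenvatinib libraries lay above all DMSO libraries for 8 of the 9 genes and below for 1, where 13.5 and 10.9 percent of the 19715 genes with any value did so. Among the 9937 tested genes the shares were 18.9 and 18.2 percent, and again nothing is read from the counts.

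The order of levels changed between the groups. In DMSO libraries the means ran from Cd2 at 80.3 through Tyrobp at 35.5, Hcst at 21.4, Cd7 at 17.7, Fcer1g at 12.3, Thy1 at 3.59, Cd160 at 0.888 and Sh2d1a at 0.306 to Ncr1 at 0.153 scaled FPKM. Neighbours in this order overlapped for Hcst with Cd7 and for Sh2d1a with Ncr1. In lenvatinib libraries Cd7 led at 93.8, followed by Cd2 at 69.9, Tyrobp at 50.2, Fcer1g at 32, Hcst at 30.7, Thy1 at 12.3, Cd160 at 5.48, Sh2d1a at 1.51 and Ncr1 at 0.822. There Fcer1g overlapped Hcst and Sh2d1a overlapped Ncr1. The ratio of Cd7 to Cd2 was 0.22 ± 0.0249 in DMSO and 1.35 ± 0.185 in lenvatinib libraries. In scaled FPKM Cd7 gained 76.1, Fcer1g 19.7, Tyrobp 14.7, Hcst 9.3, Thy1 8.73 and Cd160 4.59.

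No library was highest for all genes. Within the lenvatinib group replicate 1 was highest for 4 of the 9 genes, replicate 2 for 3 and replicate 3 for 2. Within the DMSO group replicate 1 was highest for 5 genes, and replicates 2 and 3 for 2 each. The coefficient of variation over the 3 libraries of a group was at most 12.7 percent for the 7 genes that passed the filter. It was 58.9 percent in DMSO and 45.1 percent in lenvatinib libraries for Sh2d1a, and 108.6 and 52.8 percent for Ncr1.

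Lymphocyte receptors that work through these adaptors made up a list of 7. Of these 5 were tested and 5 were called higher, with a median log2 difference of 1.41 beside 0.01 over all tested genes. All lists were chosen with earlier results of these data known, so their counts here and below are descriptions. Among all tested genes 10.4 percent were called higher and 8.21 percent lower. Klrd1, the CD94 partner of NKG2 receptors, rose from 5.29 ± 1.28 to 30.9 ± 2.92 (limma adjusted p = 7.38e-06). Klrc2, the activating NKG2C chain that pairs with DAP12, rose from 0.51 ± 0.188 to 4.95 ± 0.936 (limma adjusted p = 2.65e-05). Klrk1, the NKG2D receptor that uses DAP10, rose from 1.11 ± 0.329 to 4.56 ± 0.341, and Klrb1c, the NK1.1 antigen that uses FcR gamma, from 0.433 ± 0.116 to 2.26 ± 0.154. The ratio of Hcst to Klrk1 was 20.3 ± 5.15 in DMSO and 6.77 ± 1.04 in lenvatinib libraries. Klrc2 and Klrb1c had DMSO means below 1 and passed the filter only through their lenvatinib libraries, so the test could reach them only because they were high there. Klrb1a, the other gene called higher, stood at 0.862, 0.202 and 1.23 in DMSO and at 2.04, 3.91 and 3.23 in lenvatinib libraries. It passed the filter mainly through its lenvatinib libraries and is named after its values were seen. The untested members were Klra4, at 0.769 ± 0.153 and 0.651 ± 0.218, and Klra8, at 0.723 ± 0.663 and 0.959 ± 0.376. They belong to a family of near-identical genes. Counting can split the reads of such genes, and those of Klrc2. The same limit holds for Klra7 of the natural killer list, which was called higher, from 4.42 ± 0.94 to 26.4 ± 3.25. Any effect of this on the values was not tested. Klra4, Klra8 and Klra7 are named outside the rule, after their values were seen.

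Receptors of myeloid cells that use DAP12 or FcR gamma mostly did not pass the test. Of 15 listed genes, 6 were tested, 2 were called higher and 4 not, with a median log2 difference of 0.31. Clec4e, the Mincle lectin receptor, was at 2.45 ± 0.304 in DMSO and 3.82 ± 0.627 in lenvatinib libraries (limma adjusted p = 0.0273). Siglech, a lectin of plasmacytoid dendritic cells, was at 1.31 ± 0.572 and 2.38 ± 0.271 (limma adjusted p = 0.0472). Both calls depended on the settings. For Clec4e the adjusted p ran from 0.00725 to 0.094 over the alternatives. It was 0.0858, 0.0568, 0.0906 and 0.094 without DMSO replicate 2, DMSO replicate 3, lenvatinib replicate 1 and lenvatinib replicate 2. With no filter on low values it was 0.0795, and with a replicate block 0.0527. For Siglech the adjusted p ran from 0.00176 to 0.139. The Siglech call was lost without each library but DMSO replicate 2, with an adjusted p of at least 0.0704. It was also lost with a pseudocount of 0.1 (0.0542), with no filter on low values (0.134) and without trend and robust moderation (0.0733). Fcgr3, a low-affinity receptor for IgG, was at 1.48 ± 0.353 and 1.99 ± 0.542 (limma adjusted p = 0.301). Clec4d, a lectin receptor related to Clec4e, was at 0.844 ± 0.194 and 1.35 ± 0.319 (limma adjusted p = 0.144). Clec4d passed the filter, and so entered the count and the median, only through its lenvatinib libraries.

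Among the kinases and relays that act after ITAM adaptors, genes moved in opposite directions. Of 24 listed genes, 23 were tested, 6 rose, 8 fell and 9 were not called, with a median log2 difference of −0.1. Zap70, a relative of Syk that binds ITAMs in T cells, rose from 1.41 ± 0.301 to 6.42 ± 0.233 (limma adjusted p = 1.99e-05). The Src family kinase Lck rose from 24.1 ± 1.45 to 37.6 ± 0.75, and Pik3r1, a regulatory subunit of PI3 kinase, from 5.38 ± 0.0897 to 9.32 ± 0.967. The genes that fell included the counterparts used in B cells, named after their values were seen. Syk went from 84.4 ± 0.418 to 75.4 ± 0.78 (limma adjusted p = 0.00747) and Btk from 61.4 ± 1.81 to 51 ± 0.803 (limma adjusted p = 0.00165). The adaptor Blnk went from 133.9 ± 7.74 to 110.6 ± 1.23 (limma adjusted p = 0.00199). Cd247, the zeta chain that pairs with NKp46, was at 0.458 ± 0.0819 and 1.05 ± 0.0903 and was not tested.

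**Figure D2:**
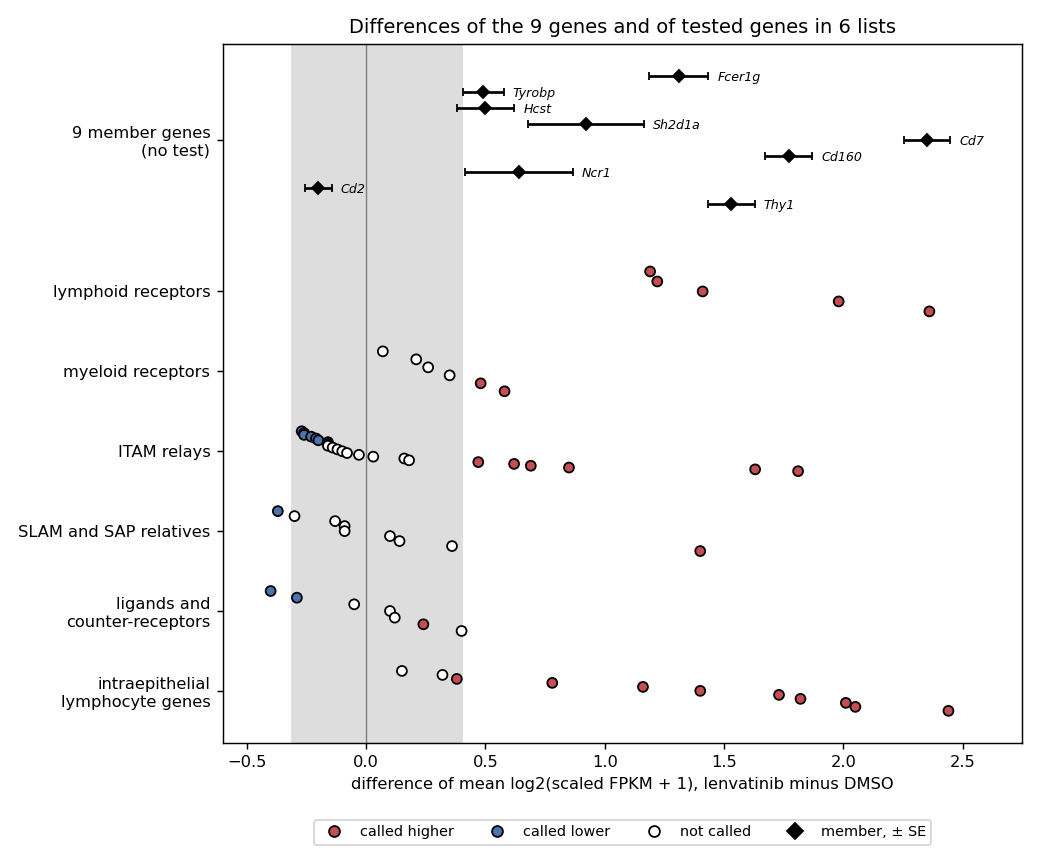
Difference of mean log2(scaled FPKM + 1), lenvatinib minus DMSO (horizontal axis), for the 9 genes (diamonds with SE) and for the tested genes of 6 lists (circles), red where limma called them higher, blue where lower and white where not called. The grey band runs from the 5th to the 95th percentile of all 9937 tested genes, −0.31 to 0.4, and every diamond but that of Cd2 has its centre to the right of it.

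Receptors of the SLAM family, to which SAP binds, mostly did not pass the test. Of 11 genes in that list 9 were tested, 1 rose, 1 fell and 7 were not called, with a median log2 difference of −0.09. Cd244a, the 2B4 receptor of natural killer cells and intraepithelial lymphocytes, rose from 0.921 ± 0.228 to 4.07 ± 0.349 (limma adjusted p = 6.82e-05). Ly9, a SLAM receptor abundant on B cells, fell from 38.7 ± 1.92 to 29.7 ± 1.8 (limma adjusted p = 0.00222). Cd84 was at 11.6 ± 0.209 and 12.8 ± 0.68 (limma adjusted p = 0.174), and Sh2d1b1, which encodes the SAP relative EAT-2, at 0.935 ± 0.188 and 1.49 ± 0.461 (limma adjusted p = 0.157).

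Ligands and counter-receptors of the surface proteins did not move as a block. Of 12 listed genes, 7 were tested, 1 was called higher, 2 fell and 4 were not called, with a median log2 difference of 0.1. Btla, which shares the ligand HVEM with CD160, fell from 118.1 ± 2.94 to 89 ± 1.99 (limma adjusted p = 5.28e-05). Tnfrsf14, which encodes HVEM, was at 8.99 ± 0.407 and 8.63 ± 0.497 (limma adjusted p = 0.66), and Cd48, the ligand of CD2 in the mouse, at 36.2 ± 1.82 and 38.9 ± 2.47 (limma adjusted p = 0.287); both are named after their values were seen. The integrin subunit Itgb3, part of a binding partner of Thy-1, fell from 33 ± 1.56 to 26.9 ± 0.56 (limma adjusted p = 0.00427). Its partner Itgav was at 9.93 ± 0.676 and 11.9 ± 0.495 (limma adjusted p = 0.0452). That call was lost when scaled to the sum of FPKM (limma adjusted p = 0.0674) and with no filter on low values (0.0945). It was also lost with a replicate block (0.0849), and without trend and robust moderation (0.0573). Leaving out any library but DMSO replicate 1 lost it as well, with an adjusted p of at least 0.0804. The adjusted p ran from 0.00189 to 0.135 over the alternatives. Ulbp1, a ligand of NKG2D, was at 1.4 ± 0.542 and 2.13 ± 0.225 (limma adjusted p = 0.121), with an adjusted p of 0.0224 without DMSO replicate 2 in a range of 0.0224 to 0.306 over the alternatives. Sectm1a, a mouse homologue of a CD7 ligand, was listed at 0 in every library. Its paralogue Sectm1b was listed at 0 in the DMSO libraries and at 0.224, 0.164 and 0.445 in the lenvatinib libraries, and was not tested; both are named after their values were seen.

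Most tested genes of a further list, of intraepithelial lymphocytes, rose. Of 13 in that list 11 were tested, 9 rose, 0 fell and 2 were not called, with a median log2 difference of 1.4. Beside these counts, 10.4 percent of all tested genes rose and 8.21 percent fell, and the list was chosen with earlier results known. Of the 9 that rose, 1 passed the filter only through its lenvatinib libraries. It was Itga1, at 0.177 ± 0.066 in DMSO and 1.63 ± 0.281 in lenvatinib libraries, named after its values were seen. With no filter on low values 11 of 13 were called higher. The granzyme gene Gzmb rose from 3 ± 0.264 to 15.5 ± 1.22 (limma adjusted p = 1.73e-06). The integrin gene Itgae, whose product CD103 holds lymphocytes to epithelial E-cadherin, rose from 1.3 ± 0.23 to 7.13 ± 0.443 (limma adjusted p = 7.38e-06). The chemokine gene Xcl1 and the coreceptor chain gene Cd8a had log2 differences of 2.44 and 1.73. The 2 that were not called, Ccr9 and Ahr, were at 1.2 ± 0.203 and 1.75 ± 0.208 and at 22.5 ± 0.229 and 25.1 ± 1.28, and were named after their values were seen. Cd244a is also in the SLAM list. Other lists share genes as well, so their counts are not of separate genes. Gzma and Xcl1 are also in the natural killer list below, and Cd8a in the T cell list. Klrd1, Klrk1 and Klrb1c are in the lymphocyte receptor and natural killer lists, and Lck and Lat in the relay and T cell lists. Kit is in the lists of group 2 and 3 innate lymphoid cells and of mast cells.

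Levels of the 9 genes can be set beside markers of the cells known to carry them. Of 10 T cell genes that could be tested, 7 rose and 0 fell, where 10.4 percent of all tested genes rose and 8.21 percent fell. The 3 that were not called were Cd4, Cd5 and Cd8b1. Cd4 was at 1.25 ± 0.232 in DMSO and 1.27 ± 0.188 in lenvatinib libraries, and Cd5 at 1.22 ± 0.32 and 1.33 ± 0.118. Cd8b1 was at 1.76 ± 0.456 and 1.39 ± 0.318. The natural killer and group 1 innate lymphoid list had 11 tested genes, of which 10 rose and 0 fell. Of those 10, 2 (Klrb1c and Klrc1) passed the filter only through their lenvatinib libraries; with no filter 9 of 13 were called higher. The list for group 2 and 3 innate lymphoid cells had 12 genes, of which only 4 could be tested; these 4 rose, with a summed level of 7.52 to 8.83 in DMSO and 21.2 to 21.5 in lenvatinib libraries. Within it Il22, a cytokine of group 3 cells, rose from 2.45 ± 0.513 to 5.52 ± 0.332 (limma adjusted p = 0.000812), while Il17a, another of their cytokines, stayed below 1 scaled FPKM in every library. Of the 12 genes 8 had a mean below 1 over the 6 libraries. The ratio of Cd7 to the T cell receptor chain gene Cd3g was 2.16 ± 0.184 in DMSO and 2.11 ± 0.207 in lenvatinib libraries, and for Cd160 to Cd3g it was 0.108 ± 0.00858 and 0.123 ± 0.0113. The groups overlapped for both ratios. The ratio of Thy1 to Cd3g, by contrast, was 0.445 ± 0.0891 and 0.279 ± 0.0508, with no overlap.

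Markers of myeloid and other cells were also described by list, beside shares of 10.4 percent higher and 8.21 percent lower over all tested genes. For macrophages and dendritic cells, 13 marker genes were tested, 3 rose and 0 fell, with a median log2 difference of 0.21. The summed level was 206 to 217 in DMSO and 239 to 250 in lenvatinib libraries. Most of that sum was Apoe, at 139.8 ± 6.13 and 159.7 ± 2.44. For neutrophils, 4 marker genes were tested, 3 rose and 0 fell, with a median log2 difference of 0.8 and sums of 13 to 14.5 and 20.1 to 26. Of the 10 listed neutrophil genes 6 had a mean below 1 over the 6 libraries, among them Ly6g, Csf3r, Mpo and Ngp. With no filter on low values 1 of 10 was called higher. The ratio of Tyrobp to the macrophage lysozyme gene Lyz2 was 1.51 ± 0.0849 in DMSO and 1.76 ± 0.168 in lenvatinib libraries, and that of Fcer1g to Lyz2 was 0.526 ± 0.0839 and 1.13 ± 0.199. In the mast cell and basophil list 1 of 2 tested genes rose, Kit, and the defining protease genes Cpa3, Mcpt1 and Cma1 were below 1 scaled FPKM in every library. In the plasmacytoid dendritic cell list, which holds genes that B cells also express, 1 of 6 tested genes rose and 2 fell, with sums of 419 to 454 and 352 to 372. The colon epithelium list had 9 of 9 tested genes higher, with sums of 14.8 to 16 and 69.2 to 74.8. Of those 9, 5 had every DMSO library below 1 and could be tested only because they were high with lenvatinib; with no filter on low values 11 of 14 were called higher. In the B cell identity list 13 of 16 fell and 0 rose, with sums of 3764 to 3815 and 3214 to 3263. In the plasma cell list 1 of 7 rose and 1 fell, with sums of 376 to 380 and 348 to 363. The plasma cell gene that rose was Jchain, from 45.9 ± 2.49 to 62.9 ± 4.36. The gene that fell was Irf4, from 136.5 ± 1.8 to 104.2 ± 0.537. The part of each of these cell types in the levels of the 9 genes was not tested.

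**Figure D3:**
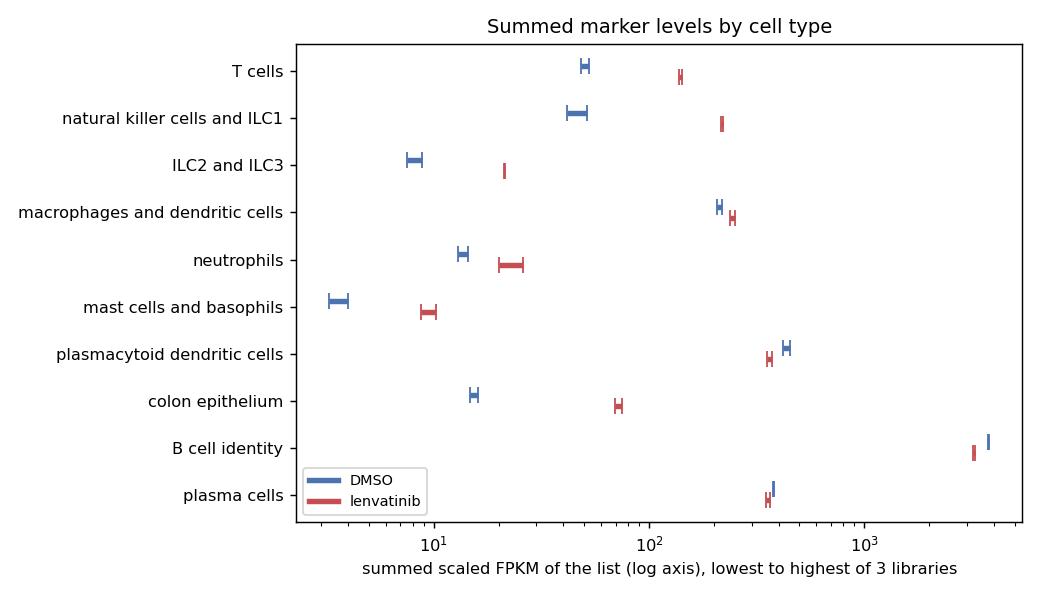
Summed scaled FPKM of each cell type list (horizontal log axis) in DMSO (blue) and lenvatinib (red) libraries, each bar running from the lowest to the highest of 3 libraries. The bars of the natural killer list are at 41.7 to 51.7 and 215 to 222, and those of the macrophage and dendritic cell list at 206 to 217 and 239 to 250. Most of the macrophage and dendritic cell sum is Apoe, at 139.8 in DMSO and 159.7 in lenvatinib libraries.

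**Figure D4:**
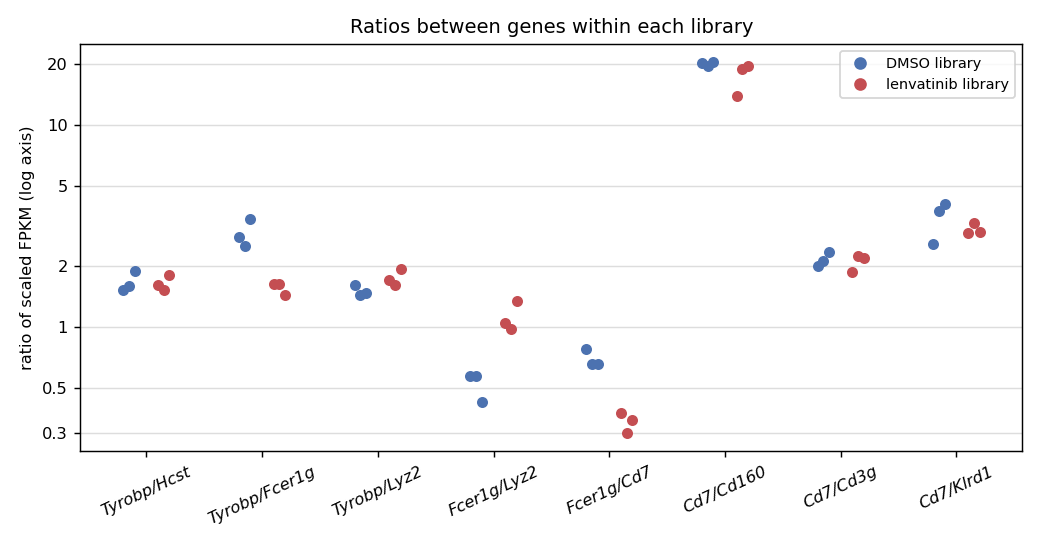
Ratio of scaled FPKM between pairs of genes within each library (vertical log axis), with 3 DMSO libraries in blue and 3 lenvatinib libraries in red. The ratios of Tyrobp to Hcst, Cd7 to Cd160, Cd7 to Cd3g and Cd7 to Klrd1 overlap between the groups, while those of Tyrobp to Fcer1g and Fcer1g to Cd7 do not.

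The genes nearest to the mean profile of the 9 were found by the root mean square difference over the 6 libraries, after subtracting from each gene its own mean log2 value. The mean profile was −0.47, −0.53 and −0.55 in DMSO replicates 1, 2 and 3 and 0.56, 0.52 and 0.48 in lenvatinib replicates 1, 2 and 3. The nearest was Fosl2, an AP-1 family transcription factor, at a distance of 0.0379 and with means of 20.9 ± 0.734 and 43.4 ± 1.53. Next came Fyb, an adaptor of T cells and myeloid cells, at 0.0419, and Gcnt2, a glycosyltransferase, at 0.0485. Cysltr2, a leukotriene receptor, Pigr, the epithelial receptor that carries IgA, Sulf2, Nt5e, the CD73 ecto-enzyme, and Ms4a8a were at 0.0499 to 0.0806. Gcnt2, Cysltr2, Sulf2 and Ms4a8a had DMSO means of 0.634, 0.382, 0.193 and 0.0994 scaled FPKM. They passed the filter, and so entered this search, only through their lenvatinib libraries. Their log2 differences, and with them their distances, depend on the pseudocount of 1. Of the 9 genes themselves Fcer1g was nearest, at 0.181, and Cd7 and Cd2 were farthest, at 0.665 and 0.619.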

How the data were processed

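RNA from B cells sorted from mouse colon was sequenced in 6 libraries, 3 per group. Per the labels' protocols, RNA was extracted with TRIzol and a VAHTS Universal V10 kit was used for the libraries. The authors deposited FPKM values, made with HTSeq on build GRCm39 per the submitters' processing notes; the sources used here do not give the aligner, the annotation or whether strand was used. Columns were matched to samples by the column name in each description, and 0 columns were unused.

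FPKM was divided by median-of-ratios factors of 0.992 to 1.01, from genes with at least 1 FPKM in every library. Genes with at least 1 scaled FPKM in at least 3 libraries were fitted as log2(scaled FPKM + 1) in limma 3.58.1 under R 4.3.3, with treatment as the only term, trend and robust moderation, two-sided tests and Benjamini-Hochberg adjustment over 9937 genes. A fold on this scale understates the change of low genes. Whole reads were recovered from the FPKM steps for 19711 of 19715 genes with any value (relative tolerance 1e-09), through 13 mitochondrial genes of known length. The procedures were tested on simulated data.

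The 9 genes and all lists were chosen with earlier results of these data known. Named list genes are the 4 tested genes with the smallest p in each list, of which 1 is not reported here; others are said to have been named after their values were seen, except markers of the cell type lists and the 8 genes nearest the mean profile. Alternatives were another pseudocount, other filters and scalings, a replicate block, plain moderation, limma-voom and leaving out each library. Promoter sequences are from RefSeq, GRCm38.p6.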

Additional observations from a re-analysis of the deposited data

How the results depend on the processing

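Over the 14 alternatives no log2 difference of the 9 genes or of the 24 list genes named by the rule changed sign. The alternatives that changed only the filter, the replicate block or the moderation leave the log2 difference unchanged, so no sign could change there. Of 315 values checked for the list genes, 291 kept their direction and side of the threshold. The called genes that lost the threshold in at least 1 alternative were Clec4e, Siglech and Itgav. Low genes moved most with the scale. The log2 difference of Cd160 was 2.5 with a pseudocount of 0.1 and 2.62 on recovered reads, that of Sh2d1a 1.99 and 2.29, that of Ncr1 2 and 3.23, and that of Thy1 1.75 and 1.77, since the pseudocount of 1 shrinks differences of low values. For Ncr1 the value on recovered reads also depends on the small offset added before taking logs, because DMSO replicate 3 had 0 reads. The number of myeloid receptors called higher was 1 with a pseudocount of 0.1, 0 without a filter, 0 with a mean filter of 5, 1 with plain moderation and 0 to 1 without 1 library. The mean filter of 5 tests fewer genes and gave 1 lymphoid receptor, 3 ITAM relays, 0 SLAM genes and 4 intraepithelial genes called higher. The ligand list had 0 called higher when scaled to the sum of FPKM, 0 with plain moderation and 0 to 1 without 1 library (0 without DMSO replicate 3 or any of the lenvatinib replicates), and plain moderation called 5 ITAM relays lower. The causes were not tested where none is named.

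Without 1 library the lymphoid receptors called higher numbered 3 to 5, being 3 without any of the lenvatinib libraries, where a gene low in DMSO can no longer reach 3 libraries. The SLAM genes called lower numbered 1 to 2, with 2 without lenvatinib replicate 3. Of all genes 673 to 827 were called higher, with 680 without lenvatinib replicate 1 and 673 without replicate 2. Myeloid receptors numbered 0 without DMSO replicate 3 and without lenvatinib replicate 1 or 2, and 1 without any of the others.

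Same-numbered libraries did not deviate together, with correlations of −0.0067, 0.00649 and −0.00528 for numbers 1, 2 and 3, so no pairing by number was detected. Correlations over all tested genes could miss a pairing that touches few genes. A replicate block gave 894 genes higher and 648 lower, 1 myeloid receptor and 0 ligands called higher. The split over all genes turned from more higher to more lower (859 and 978) under scaling by summed FPKM. Over the alternatives the T cell list had 5 to 7 genes called higher, the natural killer list 6 to 11, the epithelium list 3 to 11 and the macrophage and dendritic cell list 2 to 5, with 0 called lower in each of them. Ratios within a library do not depend on the scaling. Depth limits Ncr1 and Sh2d1a, with 19 and 28 reads over the DMSO libraries.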
